A study of Mus musculus with 9 samples.

Results

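Transcripts of 10 genes that mark the endothelium of the liver, the cells that line its blood vessels, were followed in whole liver. The genes were chosen by symbol from a table of 24008 genes, and all 10 were present and passed the filter on low counts, as did 14379 of the genes in all. They fall into 5 sinusoidal markers (Stab1, Stab2, Lyve1, Clec4g and Oit3), 2 markers of capillarized endothelium (Cd34 and Plvap) and 3 pan-endothelial genes (Pecam1, Cdh5 and Kdr). RNA was sequenced from the livers of 9 mice in 3 groups of 3, with 1 library per mouse, and every mouse was on a diet high in fat and carbohydrate that leads to non-alcoholic steatohepatitis (NASH). Flox mice carried the floxed Irf4 gene without Cre and are the group whose genotype the labels give as WT. F4MKO mice lacked Irf4, a transcription factor, in skeletal muscle, through the muscle line Myl-Cre on a C57BL/6J background. F4MKO+FSTL1 mice were F4MKO mice that received an adeno-associated virus of serotype 8 with Flag-tagged FSTL1, a secreted protein, under the muscle creatine kinase promoter, in the gastrocnemius. The study's methods place a virus with GFP in the muscle of the Flox and F4MKO mice, whereas the labels name no vector for them. Mice were 8 weeks old at an unnamed stage, and no age at collection is stated. Livers were taken 4 weeks after the virus, which followed 24 weeks of diet by one section of the methods and 12 weeks by another.

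Liver sinusoids are lined by a specialized endothelium with open pores and no continuous basement membrane, which takes up waste molecules from blood through scavenger receptors such as stabilins. In chronic liver injury this endothelium can lose its pores and gain features of ordinary capillaries, a change known as capillarization. CD34 and a basement membrane under the endothelium are classical marks of capillarized sinusoids, and stabilins, LYVE1 and the C-type lectin CLEC4G are marks of the differentiated state. The comparison of the 3 groups asks how a loss of muscle Irf4, and muscle FSTL1 on top of it, bore on the liver in NASH.

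Gene counts summed to 20656976 to 24322984 reads in a library. Irf4 was counted at 101 to 132 reads in the Flox livers, 120 to 130 in the F4MKO livers and 10, 92 and 116 in the F4MKO+FSTL1 livers, and liver counts do not check a deletion made in muscle. Fstl1 was counted at 138 to 186 reads in the Flox, 234 to 456 in the F4MKO and 67 to 114 in the F4MKO+FSTL1 livers. The study reports from qPCR that liver Fstl1 mRNA did not change after the virus, and the cause of this difference was not tested. A gene was called changed at an adjusted p under 0.05 (quasi-likelihood test of edgeR, adjusted by Benjamini and Hochberg over all tested genes) together with a fold change over 1.5. By this rule 0.271% of the tested genes were called between F4MKO and Flox livers, 14.4% between F4MKO+FSTL1 and F4MKO livers and 0.00695% between F4MKO+FSTL1 and Flox livers. The 3 libraries of the groups did not overlap for 21.8%, 39% and 18.2% of tested genes in these comparisons. An unadjusted p under 0.05 by edgeR was found for 2424, 5080 and 1924 of the 14379 tested genes. An exact permutation test of 3 against 3 mice cannot go below a two-sided p of 0.1. A pair of libraries lay low across the endothelial genes. F4MKO replicate 1 had the lowest level of all 9 libraries for 5 of the 10 members, and F4MKO+FSTL1 replicate 2 for the other 5. F4MKO replicate 1 also had the highest scaling factor (1.17, against 0.927 to 1.03 in the other libraries), and several values are given without these libraries as well.

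All 10 genes were measured well above the filter, at different levels. Values are CPM, reads of a gene relative to the size of its library, after normalization of library size by the TMM method, and levels between genes are compared as CPM per kilobase of exons. In Flox livers Plvap was highest, at 35.0 ± 2.59 CPM per kilobase (SD, n = 3), followed by Clec4g at 24.8 ± 3.86 and Oit3 at 11.2 ± 1.94. These 3 did not overlap each other in the Flox libraries. Next came Cdh5 (6.74 ± 0.885), Stab2 (6.58 ± 1.07) and Lyve1 (5.89 ± 0.758), which lay within each other's spread. Stab1 followed at 4.86 ± 0.347, Pecam1 at 4.03 ± 0.551 and Kdr at 3.29 ± 0.340, where each range overlapped the next. Cd34 was lowest by far, at 0.392 ± 0.0539 CPM per kilobase in Flox livers.

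**Figure D1:**
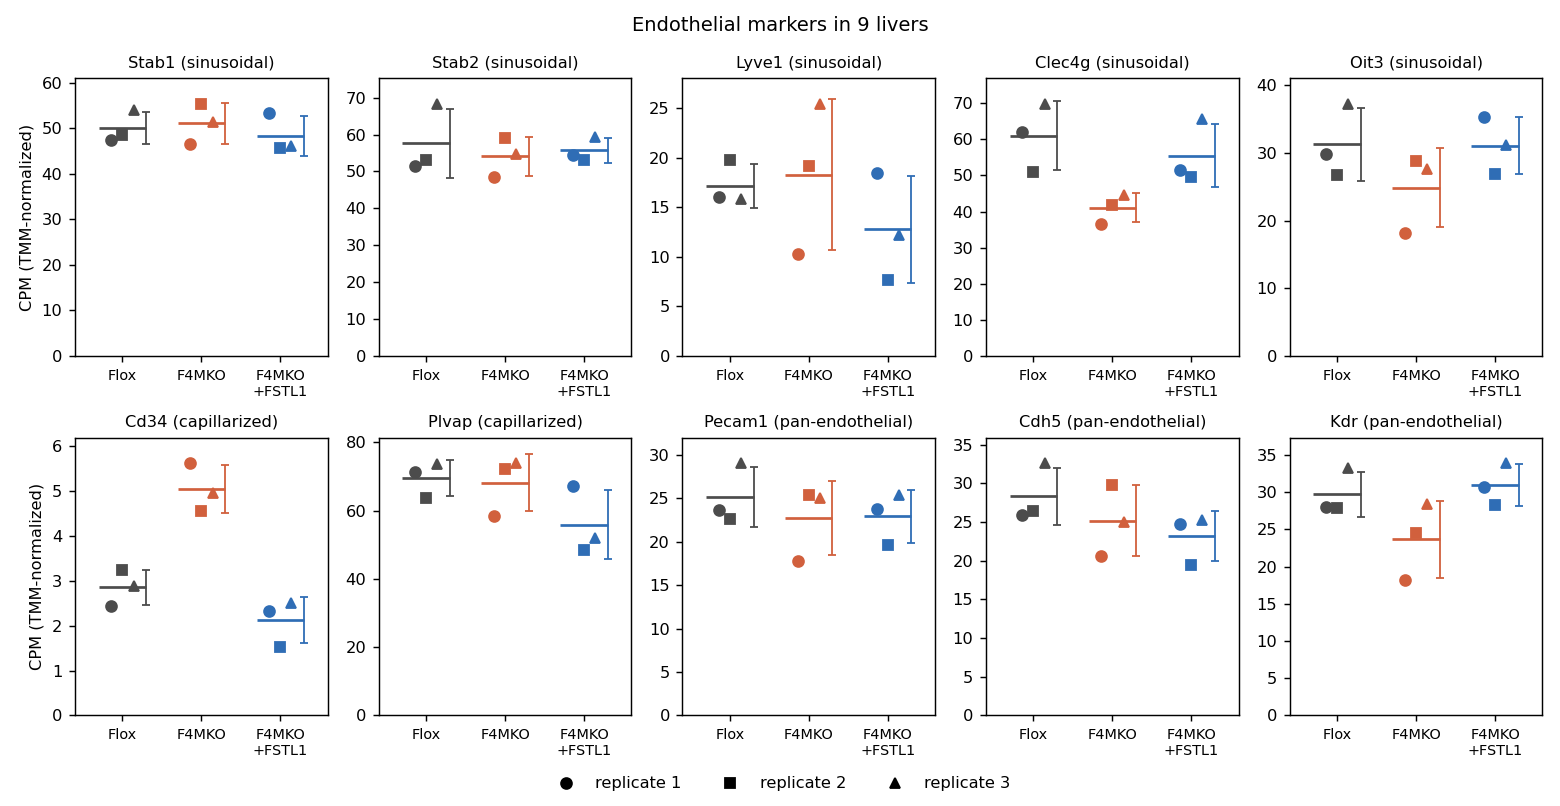
Level of the 10 endothelial markers in each of the 9 livers, as TMM-normalized CPM on axes that start at 0, with 1 point per mouse, a line at the group mean and a bar of 1 SD. Cd34 lay between 4.56 and 5.62 CPM in the F4MKO livers and between 1.54 and 3.24 CPM in the 6 others, whereas Stab1, Stab2, Pecam1 and Cdh5 overlapped between F4MKO livers and each other group.

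Cd34 was the member that passed the call rule, and it did so in F4MKO+FSTL1 against F4MKO livers. Cd34 encodes a sialomucin of the cell surface and lies at chr1:194938819-194961279 on the plus strand (mm10, GENCODE vM21). Its level was 2.45, 3.24 and 2.88 CPM in the Flox livers, 5.62, 4.56 and 4.95 CPM in the F4MKO livers, and 2.34, 1.54 and 2.51 CPM in the F4MKO+FSTL1 livers. Every F4MKO liver was above every other liver, and the Flox and F4MKO+FSTL1 livers overlapped. The reads behind these levels were few, at 55 to 79 in Flox, 109 to 159 in F4MKO and 32 to 50 in F4MKO+FSTL1 libraries.

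From F4MKO to F4MKO+FSTL1 livers Cd34 fell by 1.25 on the log2 scale (SE 0.21, 95% interval -1.71 to -0.78, edgeR adjusted p = 0.00316), a level 2.38-fold lower. Of the 10 members 1 was called here, where 14.4% of all tested genes were called and 11.2% were called lower. The call was made in each of the alternatives run, and over those that refit the fold change its log2 value lay between -1.45 and -1.06, with an adjusted p of at most 0.0154. Without F4MKO replicate 1 it was -1.17 (adjusted p = 0.0135), and without F4MKO+FSTL1 replicate 2 it was -1.06 (adjusted p = 0.0154).

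Between F4MKO and Flox livers Cd34 had a log2 fold change of 0.82 (SE 0.20, 95% interval 0.37 to 1.27), a mean level 1.76-fold that of Flox. The adjusted p was 0.0953 and the gene was not called, although the libraries did not overlap. DESeq2 gave an adjusted p of 0.0288 and edgeR without the filter on low counts 0.0369, both past the call rule, whereas leaving out F4MKO replicate 1 gave 0.309 with a log2 fold change of 0.73. Between F4MKO+FSTL1 and Flox livers the log2 fold change was -0.43 (95% interval -0.91 to 0.05, adjusted p = 0.440), and -0.24 without F4MKO+FSTL1 replicate 2.

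Plvap, the other marker of capillarized endothelium, forms the diaphragms that span endothelial pores and lies at chr8:71497765-71511752 on the minus strand. Its levels were 71.2, 63.8 and 73.7 CPM in Flox, 58.5, 72.2 and 73.8 CPM in F4MKO, and 67.2, 48.4 and 52.0 CPM in F4MKO+FSTL1 livers. A pair of F4MKO+FSTL1 livers was below all the rest, and the third lay among the Flox livers. The log2 fold change was -0.03 for F4MKO against Flox (95% interval -0.32 to 0.27, adjusted p = 0.936) and -0.29 for F4MKO+FSTL1 against F4MKO (95% interval -0.58 to 0.01, adjusted p = 0.155). The latter was -0.44 (adjusted p = 0.040) without F4MKO+FSTL1 replicate 1, -0.19 (adjusted p = 0.426) without its replicate 2 and -0.47 (adjusted p = 0.0148) with raw library totals, each under the fold limit. Against Flox, the value for F4MKO+FSTL1 livers was -0.32 (95% interval -0.61 to -0.02) with an unadjusted p of 0.0396 and an adjusted p of 0.344 by edgeR, and -0.22 without F4MKO+FSTL1 replicate 2. The interval for F4MKO against Flox did not reach the 1.5-fold limit in either direction, so the pair of capillarization markers gave unlike values in that comparison, although a difference between the genes was not tested.

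Among the 5 sinusoidal markers, Clec4g was the one whose libraries separated. Clec4g encodes a C-type lectin of sinusoidal endothelium and lies at chr8:3707064-3720651 on the minus strand. Its level was 62.1, 51.0 and 69.9 CPM in the Flox livers, 36.7, 41.9 and 44.6 CPM in the F4MKO livers, and 51.5, 49.5 and 65.5 CPM in the F4MKO+FSTL1 livers. The F4MKO livers were the 3 lowest of the 9, and the other groups overlapped.

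Between F4MKO and Flox livers Clec4g had a log2 fold change of -0.57 (SE 0.14, 95% interval -0.88 to -0.26, edgeR adjusted p = 0.0911), a mean level 1.49-fold lower that was not called. Its adjusted p was 0.0131 with DESeq2 and 0.0108 without the filter on low counts, each with a fold change under 1.5, and 0.309 without F4MKO replicate 1, where the log2 fold change was -0.49. From F4MKO to F4MKO+FSTL1 livers the log2 fold change was 0.43 (SE 0.14, 95% interval 0.13 to 0.74) with an adjusted p of 0.0490, past the limit on p and, at 1.35-fold, under the limit on fold change. That p moved across 0.05 with the settings, to 0.164 without F4MKO replicate 1, 0.0607 without F4MKO+FSTL1 replicate 2 and 0.192 with raw library totals in place of TMM, where the log2 fold change was 0.24. F4MKO+FSTL1 and Flox livers differed by -0.14 (95% interval -0.44 to 0.17, adjusted p = 0.760). The F4MKO libraries enter both of the first comparisons, so the opposite signs of Cd34 and of Clec4g in them are not independent of each other.

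Stab1 and Stab2, the scavenger receptors stabilin 1 and stabilin 2, showed the narrowest intervals. Stab1 (chr14:31139013-31168641, minus strand) was at 47.4, 48.4 and 54.1 CPM in Flox, 46.4, 55.4 and 51.3 CPM in F4MKO, and 53.2, 45.6 and 46.0 CPM in F4MKO+FSTL1 livers. Stab2 (chr10:86841198-87008025, minus strand) was at 51.5, 53.1 and 68.4 CPM in Flox, 48.6, 59.1 and 54.7 CPM in F4MKO, and 54.6, 53.1 and 59.4 CPM in F4MKO+FSTL1 livers. The groups of both genes overlapped throughout. For F4MKO against Flox the log2 fold changes were 0.03 for Stab1 (95% interval -0.19 to 0.25) and -0.09 for Stab2 (95% interval -0.36 to 0.17). For F4MKO+FSTL1 against F4MKO they were -0.08 (95% interval -0.30 to 0.14) for Stab1 and 0.04 (95% interval -0.22 to 0.31) for Stab2. All of these intervals lie inside a 1.5-fold change in either direction, so a change of that size in either stabilin was outside the 95% interval in each comparison, the one of F4MKO+FSTL1 with Flox livers included.

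Lyve1, a hyaluronan receptor shared with lymphatic endothelium (chr7:110850607-110863239, minus strand), had the widest intervals of the 10 members. Its level was 16.0, 19.8 and 15.8 CPM in Flox, 10.3, 19.2 and 25.5 CPM in F4MKO, and 18.5, 7.69 and 12.2 CPM in F4MKO+FSTL1 livers. The F4MKO livers spanned most of the range of the 9, and no comparison separated the groups. The log2 fold change was 0.09 (95% interval -0.62 to 0.79) for F4MKO against Flox and -0.52 (95% interval -1.24 to 0.20, adjusted p = 0.288) for F4MKO+FSTL1 against F4MKO, and both intervals include a 1.5-fold difference. The first value was 0.38 without F4MKO replicate 1. The second moved with single libraries, to -0.81 without F4MKO replicate 1, -0.20 without F4MKO replicate 3, -0.88 without F4MKO+FSTL1 replicate 1 and -0.25 without F4MKO+FSTL1 replicate 2. Oit3, a secreted protein of sinusoidal endothelium (chr10:59422958-59441778, minus strand), was at 29.8, 26.8 and 37.3 CPM in Flox, 18.1, 28.8 and 27.6 CPM in F4MKO, and 35.3, 26.8 and 31.2 CPM in F4MKO+FSTL1 livers. Its log2 fold changes were -0.34 (95% interval -0.73 to 0.06, adjusted p = 0.375) and 0.33 (95% interval -0.07 to 0.73, adjusted p = 0.223), and they were -0.15 and 0.14 without F4MKO replicate 1.

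The 3 pan-endothelial genes gave no call. Pecam1 (chr11:106654217-106750628, minus strand), an adhesion molecule of endothelial junctions, was at 22.6 to 29.0 CPM in Flox, 17.8 to 25.4 CPM in F4MKO and 19.6 to 25.4 CPM in F4MKO+FSTL1 livers. Cdh5 (chr8:104101625-104144511, plus strand), the VE-cadherin that holds endothelial cells together, was at 26.0, 26.4 and 32.6 CPM in Flox, 20.7, 29.9 and 25.0 CPM in F4MKO, and 24.8, 19.4 and 25.2 CPM in F4MKO+FSTL1 livers. All 3 F4MKO+FSTL1 livers were below all Flox livers for Cdh5, the only such member of the 10 where 18.2% of tested genes separated, with a log2 fold change of -0.29 (95% interval -0.63 to 0.05, adjusted p = 0.458), and -0.18 without F4MKO+FSTL1 replicate 2.

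Kdr, the main receptor of VEGF-A on endothelium (chr5:75932827-75978458, minus strand), was at 28.0, 27.9 and 33.2 CPM in Flox, 18.1, 24.5 and 28.4 CPM in F4MKO, and 30.7, 28.3 and 33.9 CPM in F4MKO+FSTL1 livers. A pair of F4MKO livers was below all others, and the third overlapped both groups. The log2 fold change was -0.33 (95% interval -0.66 to 0.01, adjusted p = 0.304) for F4MKO against Flox and 0.39 (95% interval 0.05 to 0.72, unadjusted p = 0.0271, adjusted p = 0.0936, edgeR) for F4MKO+FSTL1 against F4MKO. Without F4MKO replicate 1 these became -0.16 and 0.22, and without F4MKO replicate 3 the second was 0.54 (adjusted p = 0.0296), under the fold limit.

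**Figure D2:**
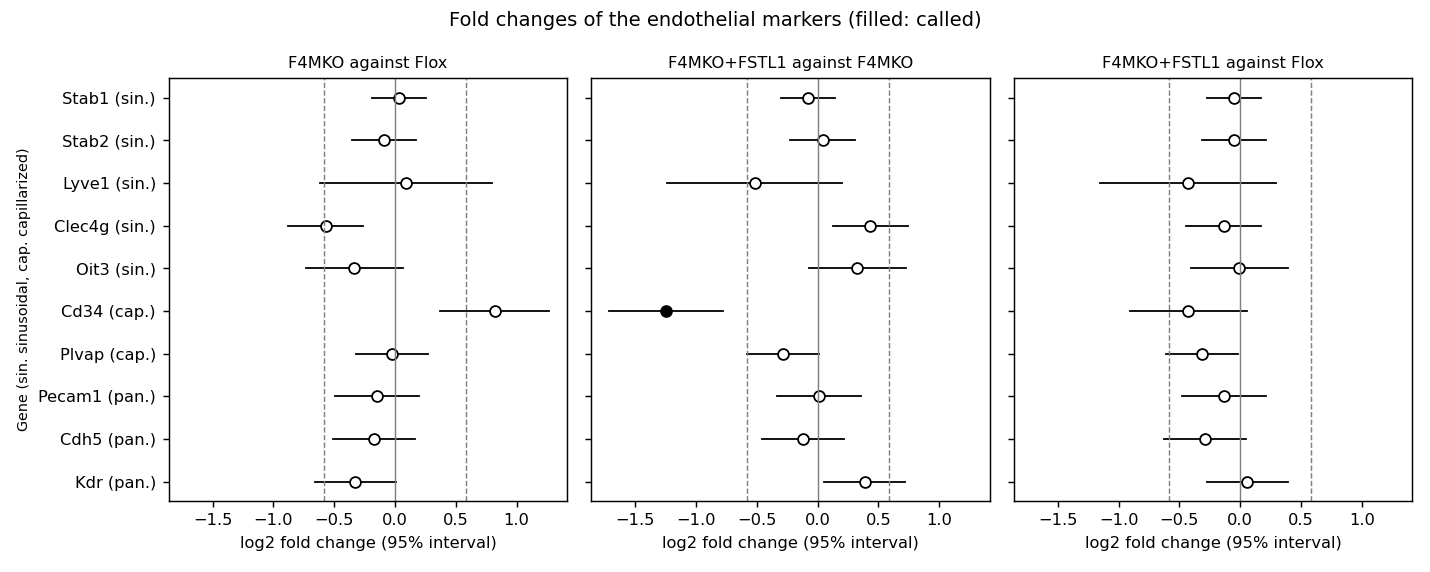
Log2 fold change (horizontal axis) with its 95% interval for the 10 markers (vertical axis) in 3 comparisons, with dashed lines at a 1.5-fold change and a filled point where the gene was called. The filled point is Cd34 in F4MKO+FSTL1 against F4MKO livers, at -1.25.

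Over the 10 members the calls were 0 for F4MKO against Flox, 1 for F4MKO+FSTL1 against F4MKO and 0 for F4MKO+FSTL1 against Flox. In these comparisons 2, 3 and 1 members had an unadjusted p under 0.05 by edgeR, beside 2424, 5080 and 1924 of the 14379 tested genes. DESeq2 called 1 member, Cd34, in each of the first comparisons and 0 in the last. The median log2 fold changes were -0.12, -0.03 and -0.13, beside -0.003, 0.01 and -0.0004 over all tested genes. Groups separated for 2, 2 and 1 of the 10. These are 20%, 20% and 10% of the members, beside 21.8%, 39% and 18.2% of all tested genes. In bulk tissue fewer endothelial cells and less RNA per cell cannot be told apart.

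The members were also set against Pecam1 and Cdh5 in the same library, which removes library size and scaling from the value. The quantity is the log2 ratio of a gene's reads to the mean of the log2 reads of Pecam1 and Cdh5, with 0.5 added to each count. For Cd34 this ratio averaged -3.21 ± 0.27 in Flox, -2.23 ± 0.42 in F4MKO and -3.44 ± 0.17 in F4MKO+FSTL1 livers (SD, n = 3), with the F4MKO livers apart from each of the other groups. For Clec4g it averaged 1.19 ± 0.13, 0.79 ± 0.17 and 1.27 ± 0.16, and the F4MKO livers were again apart from both. Per read of the pan-endothelial pair, F4MKO livers thus held the most Cd34 and the least Clec4g of the 3 groups.

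Oit3 and Kdr took higher ratios in F4MKO+FSTL1 livers than in either other group. The mean ratio was 0.22, 0.04 and 0.43 for Oit3 and 0.16, -0.02 and 0.43 for Kdr in Flox, F4MKO and F4MKO+FSTL1 livers, with the F4MKO+FSTL1 libraries above all others for both genes. The Stab1 ratio separated F4MKO from Flox livers (1.11 against 0.91), and the Stab2 ratio separated F4MKO+FSTL1 from Flox livers (1.28 against 1.11). Ratios of Lyve1 and Plvap overlapped in each comparison. In all, 3, 4 and 3 of 8 members separated in F4MKO against Flox, F4MKO+FSTL1 against F4MKO and F4MKO+FSTL1 against Flox, where the ratios of 12.7%, 23.7% and 19% of all tested genes did. The mean levels of Oit3 were 31.1 CPM in F4MKO+FSTL1 and 31.3 CPM in Flox livers, and those of Kdr 30.9 and 29.7 CPM, while Cdh5 in the denominator was lower in each F4MKO+FSTL1 liver than in any Flox liver. The ratios share their denominator, so the genes are not independent of each other in them. Within groups the members also varied with the denominator, with correlations to Pecam1 from 0.16 for Cd34 to 0.94 for Oit3. This can narrow the spread of a ratio and was not computed for other genes. The shares of all tested genes may therefore not be a like standard.

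**Figure D3:**
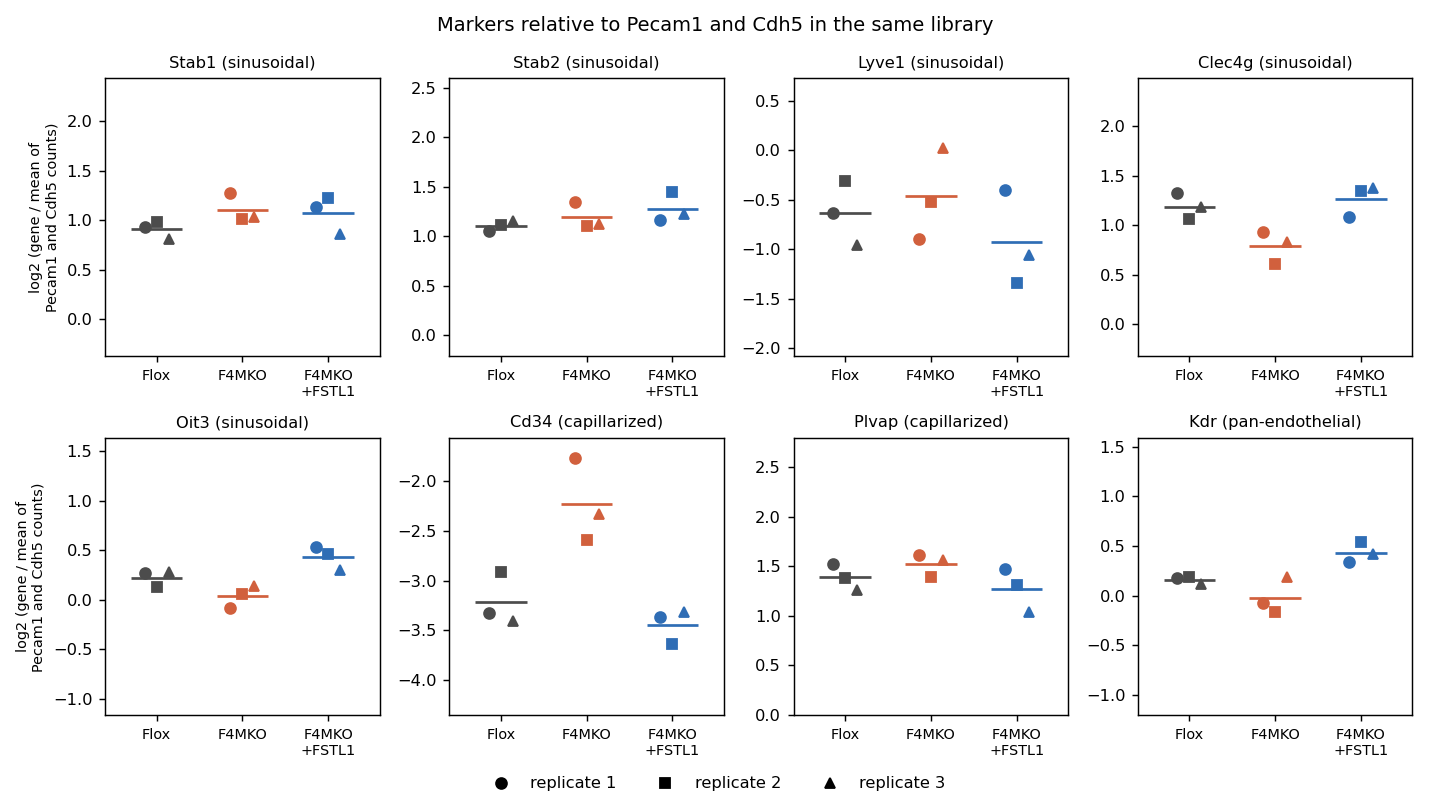
Log2 ratio of each marker's reads to the mean of Pecam1 and Cdh5 in the same library, 1 point per mouse with a line at the group mean, on axes of equal span. The F4MKO livers lay above the others for Cd34 and below the others for Clec4g, whose group means were 1.19, 0.79 and 1.27.

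Levels of the members moved together from mouse to mouse within groups, with weaker correlations for Cd34. Over the 9 libraries, the deviations of 2 members from their group means had a median Pearson correlation of 0.73 among the 36 pairs without Cd34, and all 36 were above 0. Among the 9 pairs with Cd34 the median was 0.09, and 8 were above 0. Cd34 also had the fewest reads of the 10 members, at 32 to 159 a library. No such value was computed for pairs of genes outside the 10. These values are descriptions over 9 libraries that share their scaling factors. Of the tested genes outside the 10, those whose levels followed the mean standardized level of the 5 sinusoidal markers most closely over 9 libraries were Tars2 (Pearson r 0.93), Gm36741, Pde2a, Mrc1 and Ptprb (r 0.91). For the mean of Cd34 and Plvap they were Gm41062 (r 0.98), Zeb2, F630028O10Rik, Nipal1 and Kcnj8 (r 0.96).

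The sequences just upstream of Cd34 and Clec4g are shown because these genes had the members' separated libraries in both of the first comparisons. They come from the 250 bases before a RefSeq transcript start, read 5′ to 3′ on the gene's strand in GRCm38, the build of mm10. Bases that lie inside the RefSeq or GENCODE gene were left out, 2 for Cd34 and 44 for Clec4g. Capitals mark GGAAG, a motif that holds the core bound by ETS factors, or its reverse complement CTTCC.
Cd34, chr1:194938571-194938818, plus strand: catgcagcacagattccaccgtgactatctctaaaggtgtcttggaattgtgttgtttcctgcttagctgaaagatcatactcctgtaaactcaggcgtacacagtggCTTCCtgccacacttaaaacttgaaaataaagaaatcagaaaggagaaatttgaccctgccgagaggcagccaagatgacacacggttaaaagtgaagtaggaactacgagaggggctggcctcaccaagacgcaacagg
Clec4g, chr8:3720696-3720901, minus strand: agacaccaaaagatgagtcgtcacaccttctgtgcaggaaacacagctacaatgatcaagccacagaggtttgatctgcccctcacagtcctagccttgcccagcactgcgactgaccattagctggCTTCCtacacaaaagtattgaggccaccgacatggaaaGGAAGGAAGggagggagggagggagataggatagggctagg
On both strands together the Cd34 sequence held 1 match and the Clec4g sequence 3, of which 2 overlap by 1 base. Whole windows of 250 bases were at hand for 5 of the 10 members (Cd34, Clec4g, Kdr, Stab1 and Stab2), and all 5 held GGAAG, as did 64.1% of 32851 windows of 27025 genes. In these counts bases inside genes were not left out. The whole Kdr window and the Stab2 match lie inside the RefSeq gene. GATAA, a form read by GATA factors, was in 0 of the 5 and in 22.6% of all windows. GATAG, another such form, was not searched for. It stands unmarked in the Clec4g sequence above, as does its reverse complement CTATC in that of Cd34. A match to such short and common motifs describes these letters and is no evidence of binding.

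Other endothelial genes were taken from lists written for this purpose. Of 16 other sinusoidal genes, such as Fcgr2b, Gpr182 and Dnase1l3, 0 were called between F4MKO and Flox livers by edgeR or DESeq2 and 4 had an unadjusted p under 0.05, with a median log2 fold change of -0.20 and 14 of 16 below 0. With raw library totals 11 of 16 were below 0. From F4MKO to F4MKO+FSTL1 livers 1 of 16 was called, Cd209b, a C-type lectin, which rose by 1.39 (adjusted p = 0.0237) on 5 to 7 reads in F4MKO and 13 to 14 in F4MKO+FSTL1 libraries. That call was lost in 5 of 16 alternatives, DESeq2 (adjusted p = 0.0589) among them. The background here was 3.21% of tested genes called higher.

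Of 17 other pan-endothelial genes in the table, such as Tek, Tie1, Erg and Eng, 0 were called in any comparison by edgeR or DESeq2, and 4, 0 and 0 had an unadjusted p under 0.05. Their median log2 fold change was -0.22 for F4MKO against Flox, with 16 of 17 below 0, and 0.17 for F4MKO+FSTL1 against F4MKO, with 14 of 17 above 0. With raw library totals these counts were 11 of 17 below 0 and 7 of 17 above 0, and without F4MKO replicate 1 they were 14 and 11. The summed level of the list was 267 to 308 CPM in F4MKO, 301 to 354 CPM in Flox and 293 to 323 CPM in F4MKO+FSTL1 livers.

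Of 16 tested genes of continuous, arterial, venous or activated endothelium, 3 fell from F4MKO to F4MKO+FSTL1 livers, where 11.2% of all tested genes were called lower. Against Flox, edgeR called 0 in either group, with an unadjusted p under 0.05 for 1 gene in F4MKO and 3 in F4MKO+FSTL1 livers, and DESeq2 called 0 and 2. The 3 that fell are adhesion molecules that bind leukocytes at inflamed endothelium, and Vcam1 and Icam1 are also made by other liver cells. Vcam1 was at 50.4, 63.7 and 49.7 CPM in F4MKO and 18.7, 13.5 and 22.8 CPM in F4MKO+FSTL1 livers, and it fell by 1.57 on the log2 scale (adjusted p = 0.00358). Icam1 fell by 1.12 (adjusted p = 0.00182). Sele, which is made by activated endothelium, fell by 1.65 (adjusted p = 0.0231) at levels under 1 CPM, and its call was lost in 3 of 16 alternatives, each of which left out a library. The other 13 tested genes, Vwf, Emcn and Ly6a among them, were not called.

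Basement membrane genes were lower in F4MKO+FSTL1 than in F4MKO livers. Of 8 such genes 6 fell, where 11.2% of all tested genes were called lower, with a median log2 fold change of -0.88, and all 8 were below 0. Nid1, which links laminin to collagen IV, fell by 1.61 (adjusted p = 0.000829), Col4a1, a chain of collagen IV, by 1.23 (adjusted p = 0.00159), Col4a2, another, by 1.01 (adjusted p = 0.00154) and Nid2 by 1.06 (adjusted p = 0.0191), a call lost in 4 of 16 alternatives. Between F4MKO and Flox livers Nid1 rose by 1.11 (adjusted p = 0.0360), the 1 call of 8, and it was lost in 6 of 16 alternatives. The summed level of the 8 genes was 149 to 159 CPM in Flox, 206 to 294 CPM in F4MKO and 110 to 138 CPM in F4MKO+FSTL1 livers. Stellate cells make these proteins too. Without F4MKO replicate 1, 4 of the 8 fell and 0 rose.

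Among 14 tested genes of VEGF, angiopoietin, BMP9 and Notch signalling, through which endothelium is grown and kept differentiated, 4 fell from F4MKO to F4MKO+FSTL1 livers, beside 11.2% of all tested genes. They were the TIE2 ligand Angpt1 (log2 fold change -1.24, adjusted p = 0.0110), the growth factor Hgf (-1.10, adjusted p = 0.0270), the BMP9 receptor Acvrl1 (-0.71, adjusted p = 0.0119) and the Notch ligand Jag1 (-0.63, adjusted p = 0.0300), calls lost in 2, 4, 1 and 5 of 16 alternatives. In the same comparison the groups separated for 10 of the 14, beside 39% of all tested genes, and the list's median log2 fold change was -0.305. All F4MKO+FSTL1 livers were below all F4MKO livers for 6 genes and above them for 4, and 0 were called higher. Vegfa, the ligand of Kdr, and its co-receptor Nrp1 were among the 4 that lay above, and they were named after their values were seen. Mean levels in F4MKO and F4MKO+FSTL1 livers were 111 and 152 CPM for Vegfa (log2 fold change 0.45, adjusted p = 0.0237) and 55.4 and 79.7 CPM for Nrp1 (0.53, adjusted p = 0.0340), under the fold limit. Angpt1, Hgf and Jag1 are also made outside endothelium. Leaving out F4MKO replicate 1 kept 1 of the 4 calls, and leaving out F4MKO+FSTL1 replicate 2 kept 0. In the comparisons with Flox, edgeR called 0 of 14, with an unadjusted p under 0.05 for 3 in F4MKO and 2 in F4MKO+FSTL1 livers, and DESeq2 called 1 and 0.

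**Figure D4:**
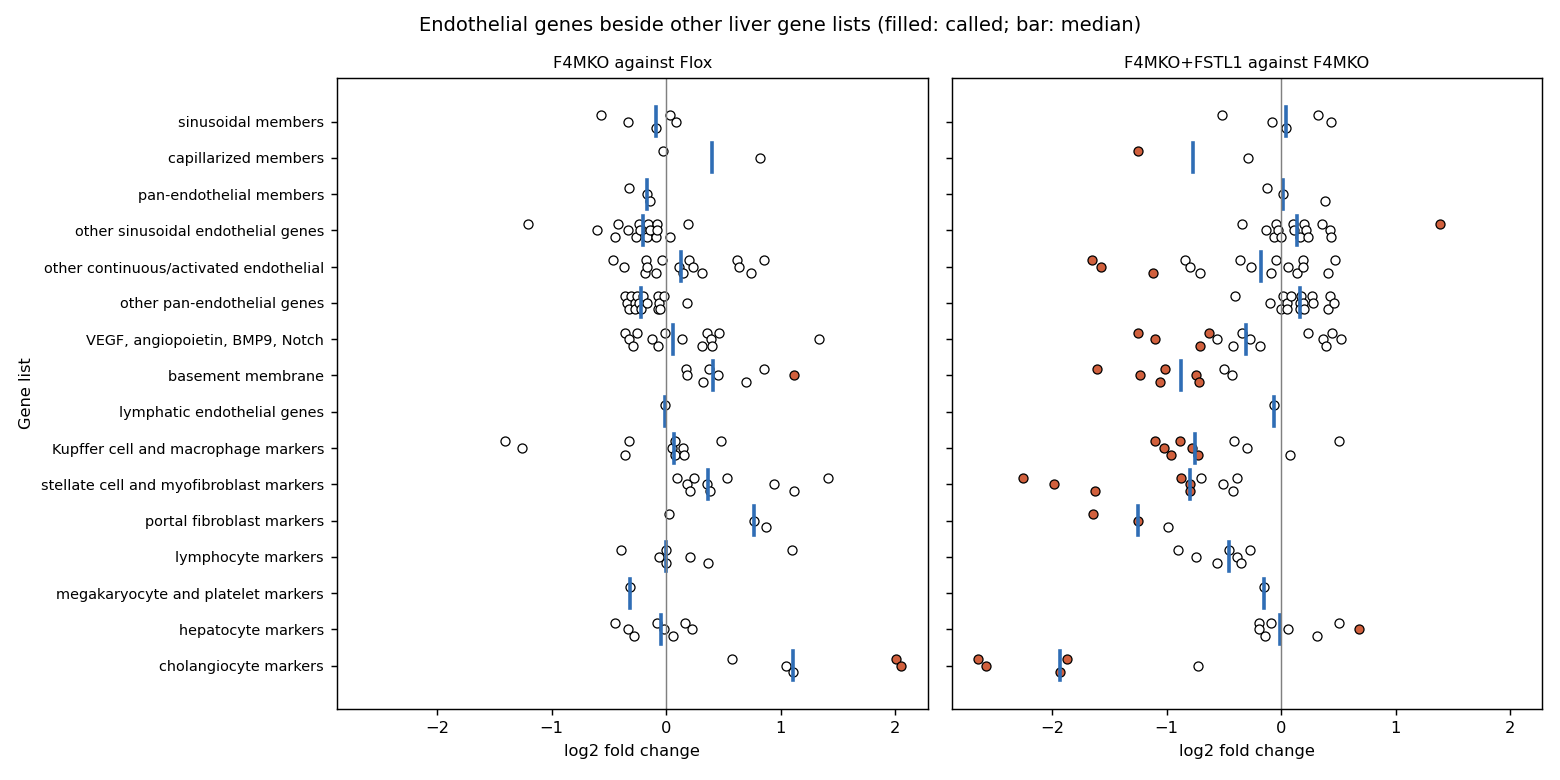
Log2 fold change (horizontal axis) of each tested gene of the 3 member lists and 13 other lists (vertical axis) in F4MKO against Flox and F4MKO+FSTL1 against F4MKO livers, 1 point per gene, filled where called, with a bar at the list's median. Medians of the sinusoidal and pan-endothelial members stayed between -0.17 and 0.04, and the basement membrane list moved from 0.41 to -0.88.

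CD34 is also carried by portal fibroblasts and blood-forming progenitors, and markers of several other liver cells fell from F4MKO to F4MKO+FSTL1 livers. In that comparison 11.2% of all tested genes were called lower, and between F4MKO and Flox livers 0.271% were called in either direction. The 10 stellate cell and myofibroblast markers summed to 447 to 519 CPM in Flox, 600 to 760 CPM in F4MKO and 295 to 410 CPM in F4MKO+FSTL1 livers, and 6 of 10 fell from F4MKO to F4MKO+FSTL1, led by Col1a1 (log2 fold change -2.25, adjusted p = 0.00152). The study reports from qPCR that Col1a1 was lower in F4MKO than in Flox livers, in mice for which it names no virus. It also reports qPCR of fibrosis genes in virus-treated mice of all 3 groups, with the changes seen by Sirius red stain. Stained fibrosis there was decreased in F4MKO livers and similar in the other groups. The mean of Col1a1 here was 39.8 CPM in F4MKO, 14.9 CPM in Flox and 8.34 CPM in F4MKO+FSTL1 livers. The cause of these differences from the study's qPCR was not tested. The 4 portal fibroblast markers summed to 9.41 to 13.2, 15.1 to 26.4 and 6.06 to 7.99 CPM, and 2 of 3 tested fell, Dpt (-1.64, adjusted p = 0.00116) and Mfap4 (-1.25, adjusted p = 0.0463, lost in 6 of 16 alternatives). The 10 Kupffer cell and macrophage markers summed to 632 to 999, 711 to 809 and 374 to 601 CPM, and 6 of 10 fell, among them Cd68 (-1.10, adjusted p = 0.00368). Of the macrophage markers 0 were called between F4MKO and Flox livers by edgeR and 3 had an unadjusted p under 0.05, whereas DESeq2 called 1 lower. Marco and Timd4, markers of resident Kupffer cells named after their values were seen, took the opposite sign to Cd34 there, at -1.41 (adjusted p = 0.139) and -1.26 (adjusted p = 0.153), and were at 0.08 and 0.51 from F4MKO to F4MKO+FSTL1 livers. The macrophage list as a whole was split between F4MKO and Flox livers, with 6 markers above 0, 4 below and a median log2 fold change of 0.07. From F4MKO to F4MKO+FSTL1 livers 2 of the 10 were above 0 and 8 below. The 5 cholangiocyte markers summed to 50.7 to 88.9, 160 to 430 and 36.1 to 53.9 CPM, 4 of 5 fell, and Spp1 (log2 fold change 2.05, adjusted p = 0.0404) and Epcam (2.01, adjusted p = 0.0360) were called higher in F4MKO than in Flox livers, calls lost in 8 and 5 of 16 alternatives. Spp1 made up most of the cholangiocyte sums, at 42.2 to 78.2 CPM in Flox, 143 to 397 CPM in F4MKO and 29.9 to 45.6 CPM in F4MKO+FSTL1 livers. No marker of these 4 lists was at 0 throughout a group. Their part in the Cd34 result was not tested.

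Markers of the remaining cell types gave few calls. Of 8 hepatocyte markers 1 was called, Serpina1a, which rose by 0.68 from F4MKO to F4MKO+FSTL1 livers (adjusted p = 0.00981, lost in 2 of 16 alternatives), and their summed level was 64437 to 96418 CPM in F4MKO, lowest in replicate 1, and 75553 to 94576 CPM in the other groups. Of 7 tested lymphocyte markers 0 were called by edgeR or DESeq2, and 0, 0 and 2 had an unadjusted p under 0.05 in the 3 comparisons. The lymphatic list, against which Lyve1 must be read, had 3 genes in the table, of which Prox1, also made by hepatocytes, was tested and not called, and Ccl21a was at 0 in every Flox and F4MKO+FSTL1 library. Of 4 megakaryocyte and platelet markers, whose cells can carry Pecam1, 1 was tested and not called, and Pf4 was at 0 in every F4MKO+FSTL1 library.

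Exons of 4 members share bases with a gene on the opposite strand, and the use of strand in the counting is not given in the sources used here. The shared part is 5.93% of Clec4g exons (with Gm16553, at 4 to 7 reads a library), 2.03% for Cd34 (Gm16897, at 0 to 5 reads), 1.61% for Stab2 (Gm16268) and 1.09% for Stab1 (Nt5dc2, at 133 to 356 reads).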

How the data were processed

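Whole liver RNA of 9 mice (3 Flox, 3 F4MKO, 3 F4MKO+FSTL1) was sequenced as 150 bp paired-end reads. The authors trimmed the reads with Trim Galore 0.6.7, mapped them to mm10 with HISAT2 2.2.1 and deposited counts per gene made with featureCounts 2.0.1, neither normalized nor filtered. The gene annotation, strand setting and handling of multi-mapping reads are not given in the sources used here.

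The analysis used edgeR 4.0.16 in R 4.3.3. Its filterByExpr, at a minimum count of 10 and a minimum total of 15, kept 14379 of 24008 genes. All 9 libraries entered 1 quasi-likelihood fit of group means after TMM normalization, with a common biological coefficient of variation of 0.150. A gene was called when its fold change exceeded 1.5 and its Benjamini-Hochberg adjusted p was under 0.05. Library totals of 20656976 to 24322984 reads set the counting precision, and errors printed are the spread between mice. Levels per kilobase used the union of GENCODE vM21 exons, and upstream windows came from RefSeq (GRCm38.p6). The fit was also run on counts simulated from its own estimates of spread, with known changes planted. That run checks the code and does not test the calls made here.

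The 10 members and the 13 lists of other genes were chosen with earlier results of these data known. Named genes are the 10 members, in each list at most the 4 called genes with the largest change in a comparison, and the 5 genes most correlated with each marker group. Replicate numbers come from the labels, and a shared number does not mean a shared mouse. The alternatives were DESeq2 1.42.0, other scalings (DESeq2 size factors, upper quartile, raw totals), no filter, only the 6 libraries compared, a replicate block, an adjusted p alone, a test against a 1.5-fold change, and each library left out in turn. Figures were drawn with matplotlib 3.10.9.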

Additional observations from a re-analysis of the deposited data

How the results depend on the processing

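The number of members called was 0 for F4MKO against Flox, and 1 (Cd34) with DESeq2 and 1 (Cd34) with no filter on low counts. It was 1 for F4MKO+FSTL1 against F4MKO, and 2 (Cd34 and Clec4g) by adjusted p alone. It was 0 for F4MKO+FSTL1 against Flox in all alternatives run. Leaving out each library in turn gave 0 to 0, 1 to 1 and 0 to 0 members in these comparisons. Of 480 alternative fold changes of members, 450 kept their direction and their side of the call, 2 became called (Cd34 above) and 28 changed sign, all of them in genes that were not called. With raw library totals, which shift the median of all genes by 0.11, -0.18 and -0.08 in the 3 comparisons, Stab2 was 0.021 and Plvap 0.082 for F4MKO against Flox, Stab2 -0.15 and Pecam1 -0.17 for F4MKO+FSTL1 against F4MKO, and Kdr -0.021 for F4MKO+FSTL1 against Flox. With upper-quartile factors Stab2 was -0.022 and Pecam1 -0.048 for F4MKO+FSTL1 against F4MKO, and Plvap 0.0048 for F4MKO against Flox. Oit3 was 0.0018 with DESeq2 for F4MKO+FSTL1 against Flox. With each library left out in turn, F4MKO against Flox ranged from -0.035 to 0.095 for Stab1, -0.17 to 0.048 for Stab2, -0.23 to 0.38 for Lyve1, -0.091 to 0.073 for Plvap and -0.23 to 0.0067 for Pecam1. F4MKO+FSTL1 against F4MKO ranged from -0.034 to 0.11 for Stab2, -0.14 to 0.12 for Pecam1 and -0.25 to 0.017 for Cdh5. F4MKO+FSTL1 against Flox ranged from -0.12 to 0.011 for Stab1, -0.12 to 0.092 for Stab2, -0.11 to 0.14 for Oit3 and -0.0053 to 0.15 for Kdr. Of 480 values of other named genes 424 kept their call, 56 lost it and 0 changed sign. The cause of these changes was not tested.

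The labels name nothing that same-numbered libraries share beyond the number, and whether they share a batch was not tested. Their deviations from group means correlated at 0.04 to 0.17 for F4MKO and Flox, 0.09 to 0.30 for F4MKO+FSTL1 and F4MKO, and -0.10 to 0.21 for F4MKO+FSTL1 and Flox, and 5, 6 and 2 of 6 libraries correlated best with their own number. With a replicate block 0, 1 and 0 members were called, the adjusted p of Clec4g for F4MKO against Flox was 0.0433 at a fold change under 1.5, Oit3 for F4MKO+FSTL1 against Flox was 0.0050, and calls over all genes were 134, 2170 and 15 in place of 39, 2070 and 1. Over all genes DESeq2 called 338, 2127 and 284, and the fit with no filter 478, 2397 and 379. With only the 6 libraries compared 11, 1916 and 0 were called. Leaving out a library gave 0 to 100, 1295 to 2216 and 0 to 101. Raw totals raised the share called lower in F4MKO+FSTL1 against F4MKO, to 2282 of 2497 from 1609 of 2070. Depth limited Cd34 most, at 32 to 159 reads a library.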
